A study of Mus musculus with 9 samples.

Results

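Primary murine articular chondrocytes that overexpressed OSCAR were compared after culture with 5-ASA and after culture without it, in 3 cultures each of the 9 that were sequenced. Chondrocytes are the cells that make and maintain cartilage matrix, OSCAR is a collagen receptor of the immunoglobulin superfamily best known from osteoclasts, and 5-ASA (mesalamine) is an anti-inflammatory salicylate given in ulcerative colitis. The 3 groups were Control, Ad-OSCAR (cells given an adenovirus that expresses OSCAR) and Ad-OSCAR + 5-ASA treatment. Per the methods the Control cells received the adenovirus Ad-Control and no 5-ASA, and the sample annotations give the same infection for all groups. All cells came from femoral condyle and tibial plateau cartilage of wild-type pups at postnatal day 5, and all plates were coated with COLpep, a collagen peptide that OSCAR binds. The study's methods give 10 µM 5-ASA for 24 h, 2 days of culture before infection and 800 MOI, whereas the sample annotations give 3 days of culture, 400 MOI for 2 h and 36 h before 5-ASA. Both sources describe infection before the drug. No IL-1β was added, and whether the untreated cultures received a vehicle is not stated for this experiment. The study's statistics section describes n in general as biologically independent samples, but no source says how the 3 sequenced cultures of a group relate to pups or preparations, so the p-values below measure the spread between these cultures, part of which may be technical.

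The level of Oscar differed between the compared groups. Oscar (chr7:3609813-3616157, minus strand) was at 6354, 7112 and 6528 CPM (counts per 1e6 of the TMM-scaled library size) in the untreated Ad-OSCAR cultures and at 3528, 2946 and 3723 CPM in the 5-ASA-treated cultures. The 3 treated values lay below all untreated ones, at a mean 1.96-fold lower (log2 fold change -0.97, SE 0.0648, adjusted p = 1.76e-08). In Control, 3 or 4 reads per culture were assigned to Oscar. The counts do not separate viral Oscar from that of the endogenous gene. Every difference below is therefore a difference between cells with the drug and less Oscar mRNA and cells without the drug and more Oscar mRNA, and the effect of 5-ASA and that of the lower Oscar level cannot be told apart.

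The change with 5-ASA was broad and small. The quasi-likelihood test of edgeR was run on 15362 genes, and a gene was called when its p, adjusted by Benjamini and Hochberg's method, was below 0.05. It called 1598 genes higher in the treated cultures (10.4% of those tested) and 1134 lower (7.38%), 2732 in all (17.8%). Without Ad-OSCAR culture 1 or treated culture 1, the genes called lower numbered 736 and 721. The median absolute log2 fold change of the called genes was 0.30, a 1.23-fold difference. Of the calls, 2315 were under 1.5-fold, 247 were over 1.5-fold and higher (1.61% of genes tested), 170 were over 1.5-fold and lower (1.11%), and 73 and 55 were over 2-fold. The 170 became 264 with libraries scaled by total counts and 111 in DESeq2. The 3 treated and 3 untreated values did not overlap for 5195 genes (33.8%), so separation of the groups on its own is common. The first principal component of the 6 cultures held 35.2% of their variance, with the untreated cultures between -20.1 and -13.7 and the treated ones between 14.5 and 20.4. The direction split depended on the scaling: 58.5% of calls were higher under TMM, but with libraries scaled by total counts alone 1058 genes were higher and 2523 lower, so that 29.5% of calls were higher and the median log2 fold change of all genes went from -0.0044 to -0.075. No called gene named below changed its direction under that scaling. Where it moved the split of a list by more than 10 percentage points, the counts under total count scaling are given after those under TMM. In the plot of all genes, 7 genes with an absolute log2 fold change over 3 are outside the range drawn, and none of their group means exceeded 2.08 CPM.

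**Figure D1:**
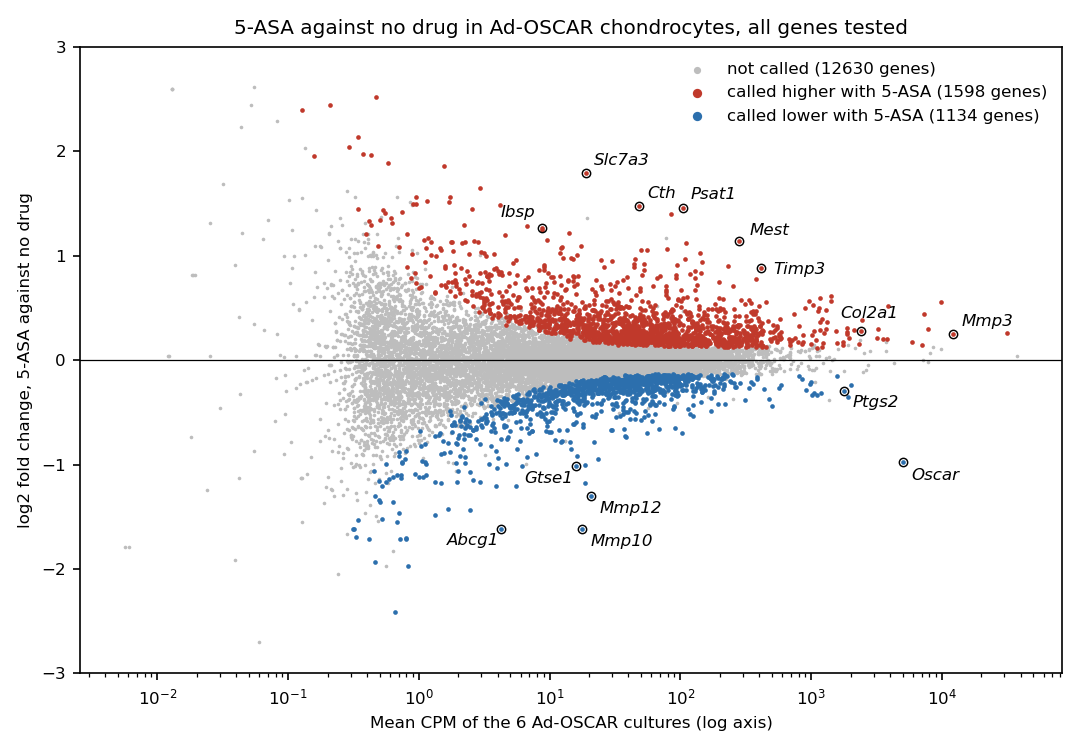
Log2 fold change of 5-ASA-treated against untreated Ad-OSCAR cultures for each gene tested, against its mean CPM in the 6 cultures on a log axis, with genes called at an adjusted p below 0.05 in red (higher) or blue (lower) and the circled genes named. Most called genes lie within 1.5-fold of no change, Slc7a3, Cth and Psat1 are among the highest well-expressed genes, and Mmp10, Abcg1 and Mmp12 are among the lowest.

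Genes that supply cells with amino acids held 4 of the 10 largest rises among called genes whose groups did not overlap and whose mean was 5 CPM or more. Cells that run short of amino acids or face protein-folding stress phosphorylate a translation initiation factor, which favours translation of the transcription factor ATF4. ATF4 then raises genes of amino acid uptake, serine and asparagine synthesis and tRNA charging, through short sequence elements in their promoters, and it also raises CHOP (encoded by Ddit3), which drives part of the response. Slc7a3 (chrX:101079210-101086020, minus strand), a transporter of arginine and lysine, was at 8.07, 11.2 and 6.26 CPM without drug and 26.6, 35.6 and 25.2 CPM with 5-ASA (log2 fold change 1.79, SE 0.153, adjusted p = 2.79e-07). Slc7a5 (chr8:121881150-121907694, minus strand), the large neutral amino acid transporter, was at 46.6, 52.7 and 39.2 CPM and then at 119, 129.7 and 117 CPM (log2 fold change 1.40, SE 0.0860, adjusted p = 1.19e-08). In both genes the lowest treated culture was more than 2 times as high as the highest untreated one. Their levels in Control were 19.6 to 24.1 CPM for Slc7a3 and 131 to 156 CPM for Slc7a5. Of 24 amino acid transporters tested, 9 were called higher and 1 lower (8 and 3 under total count scaling), with a median log2 fold change of 0.11 over the list beside -0.0044 over all genes. The glycine transporter Slc6a9 (log2 fold change 0.91, adjusted p = 1.31e-07), the cationic transporter Slc7a1 (log2 fold change 0.79, adjusted p = 1.76e-08) and the glutamine transporter Slc1a5 (log2 fold change 0.77, adjusted p = 2.00e-07) were the next largest, and the other 14 members did not pass the test.

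Serine synthesis rose at each of its 3 steps. Phgdh, which starts the pathway from a glycolytic intermediate, was at 71.5, 80.6 and 58.0 CPM and, with 5-ASA, at 154, 153 and 149.5 CPM (log2 fold change 1.12, SE 0.0811, adjusted p = 4.47e-08). Psat1 (chr19:15904678-15947337, minus strand), the second enzyme, was at 53.5, 65.0 and 47.9 CPM and at 145, 175 and 137 CPM (log2 fold change 1.46, SE 0.0936, adjusted p = 1.35e-08). Psph, the last, had a log2 fold change of 0.89 (adjusted p = 2.86e-07). None of the 3 overlapped between groups. The mitochondrial enzymes that pass the carbon of serine into the folate cycle also rose: Shmt2 by 0.84, Mthfd2 by 1.06 and Aldh1l2 by 1.06 on the log2 scale (adjusted p = 7.17e-08, 1.16e-07 and 1.39e-08). Their cytosolic counterparts did not pass the test, at -0.28 for Shmt1 and 0.034 for Mthfd1, and the difference between the compartments was not tested. In all, 9 of 22 members of the serine and folate list were called higher and 1 lower (median 0.078).

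Among genes of asparagine, glutamine and proline metabolism, 7 of 18 were called higher and 1, Aldh4a1, lower (6 and 2 under total count scaling, median 0.10). Cth (chr3:157894248-157925077, minus strand), which releases cysteine from cystathionine, was at 24.1, 29.6 and 22.4 CPM without drug and at 69.0, 79.0 and 62.7 CPM with it (log2 fold change 1.48, SE 0.0876, adjusted p = 9.90e-09), against 35.3 to 37.8 CPM in Control. Asns, the asparagine synthetase, was at 88.0, 107 and 83.3 CPM and at 186, 207 and 172 CPM (log2 fold change 1.03, adjusted p = 7.94e-08). The treated levels of Asns spanned those of Control (176 to 192 CPM), and those of Cth lay above them. Both enzymes that start and end proline synthesis from glutamate rose, Aldh18a1 by 0.85 and Pycr1 by 1.09 on the log2 scale (adjusted p = 3.61e-08 and 3.48e-08). The call of Aldh4a1, which degrades proline (log2 fold change -0.23), was lost without Ad-OSCAR culture 1 or 2 or treated culture 2 (adjusted p between 0.0822 and 0.148).

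The cytosolic aminoacyl-tRNA synthetases, which join each amino acid to its tRNA, moved by smaller amounts but in greater number: 14 of 20 were called higher, 1 (Qars) was called lower, and the median was 0.40. Gars, for glycine, was at 146, 159.9 and 143 CPM and at 215, 233 and 205 CPM (log2 fold change 0.54, SE 0.0543, adjusted p = 1.60e-06). Yars, Lars, Nars, Mars and Tars followed at 0.53, 0.52, 0.48, 0.47 and 0.47, with adjusted p-values between 1.6e-06 and 4.64e-05. Each of the 16 alternative settings also called 14 members higher and 1 lower.

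Atf4 itself was at 319, 334 and 294 CPM without drug and at 445, 461 and 408 CPM with 5-ASA (log2 fold change 0.47, SE 0.0528, adjusted p = 5.23e-06). Of the 21 genes listed as ATF4 or CHOP responsive, 13 were called higher and 2 lower (12 and 5 under total count scaling, median 0.32). Chac1, which degrades glutathione, Trib3, a pseudokinase, and Nupr1, a stress-induced nuclear protein, rose by 0.97, 0.82 and 0.82 on the log2 scale (adjusted p = 4.94e-08, 5.62e-07 and 1.75e-06). The largest fold of the list was that of Fgf21, a secreted stress hormone, but it rested on 2 to 6 reads per untreated culture and 17 to 25 per treated culture (log2 fold change 2.52, SE 0.415, adjusted p = 0.000298). Ddit3 did not share the rise, at 44.6, 43.3 and 39.8 CPM and 40.5, 40.9 and 37.7 CPM with overlapping values (log2 fold change -0.10, adjusted p = 0.219; under total count scaling it was called lower, at -0.17). The 2 members called lower were Atf3, another stress-induced transcription factor, at 17.6, 19.97 and 18.9 CPM and 9.50, 10.9 and 10.8 CPM (log2 fold change -0.85, adjusted p = 2.57e-06), and the cell death gene Bbc3 (-0.39), whose call was lost without Ad-OSCAR culture 1 or treated culture 2 (adjusted p = 0.074 and 0.0557).

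The amino acid response element bound by ATF4 is written here as TGATGNAAT on either strand. It was searched in the 300 bases around the annotated start of each gene (250 before, 50 after) in the RefSeq promoter table of build GRCm38.p6. It was present in 66 of the 10905 tested genes with a promoter there (0.605%). It occurred in 3 of 12 tRNA synthetases with an entry (Aars, Gars and Iars), in 1 of 12 genes of asparagine, glutamine and proline metabolism (Pycr1) and in 2 of 20 ATF4 or CHOP responsive genes (Nupr1 and Fgf21), and in none of the 18 serine and folate genes or 17 transporters with an entry. Of the 66 genes with the element, 16 were called higher (24.2%) and 2 lower (3.03%), beside 10.6% and 8.11% of the 10905, and these lists supplied 6 of the 16. The median log2 fold change of the 66 was 0.0079, beside -0.0082 of the 10905. Among the other lists only that of NF-κB, described below, had a match (Traf1). A match is a description of the letters and not a site of binding. The windows of Pycr1, Nupr1, Fgf21, Aars and Gars are shown because they hold the element upstream of genes called higher. Each is printed 5′ to 3′ on the strand of its gene with the element in capitals, or, where it lies on the other strand, its reverse complement.
Pycr1: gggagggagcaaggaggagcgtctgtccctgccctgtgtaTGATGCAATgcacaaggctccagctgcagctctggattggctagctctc
Nupr1: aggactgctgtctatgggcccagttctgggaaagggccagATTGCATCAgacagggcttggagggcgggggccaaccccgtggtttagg
Fgf21: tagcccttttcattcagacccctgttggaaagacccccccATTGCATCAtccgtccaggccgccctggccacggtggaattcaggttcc
Aars: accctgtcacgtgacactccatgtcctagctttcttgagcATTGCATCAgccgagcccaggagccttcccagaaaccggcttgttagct
Gars: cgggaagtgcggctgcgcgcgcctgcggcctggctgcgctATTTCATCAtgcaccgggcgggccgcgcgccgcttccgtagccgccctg
Their positions are chr11:120643803-120643891, chr7:126625533-126625621 and chr7:45615582-45615670 on the minus strand, and chr8:111033689-111033777 and chr6:55037930-55038018 on the plus strand. The element begins 103 bases before the start of Pycr1, 111 before Nupr1, 140 before Fgf21, 113 before Aars and 31 before Gars, and the last 18 bases shown for Gars lie past its start. Aars rose by 0.27 and Iars by 0.44 on the log2 scale.

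**Figure D2:**
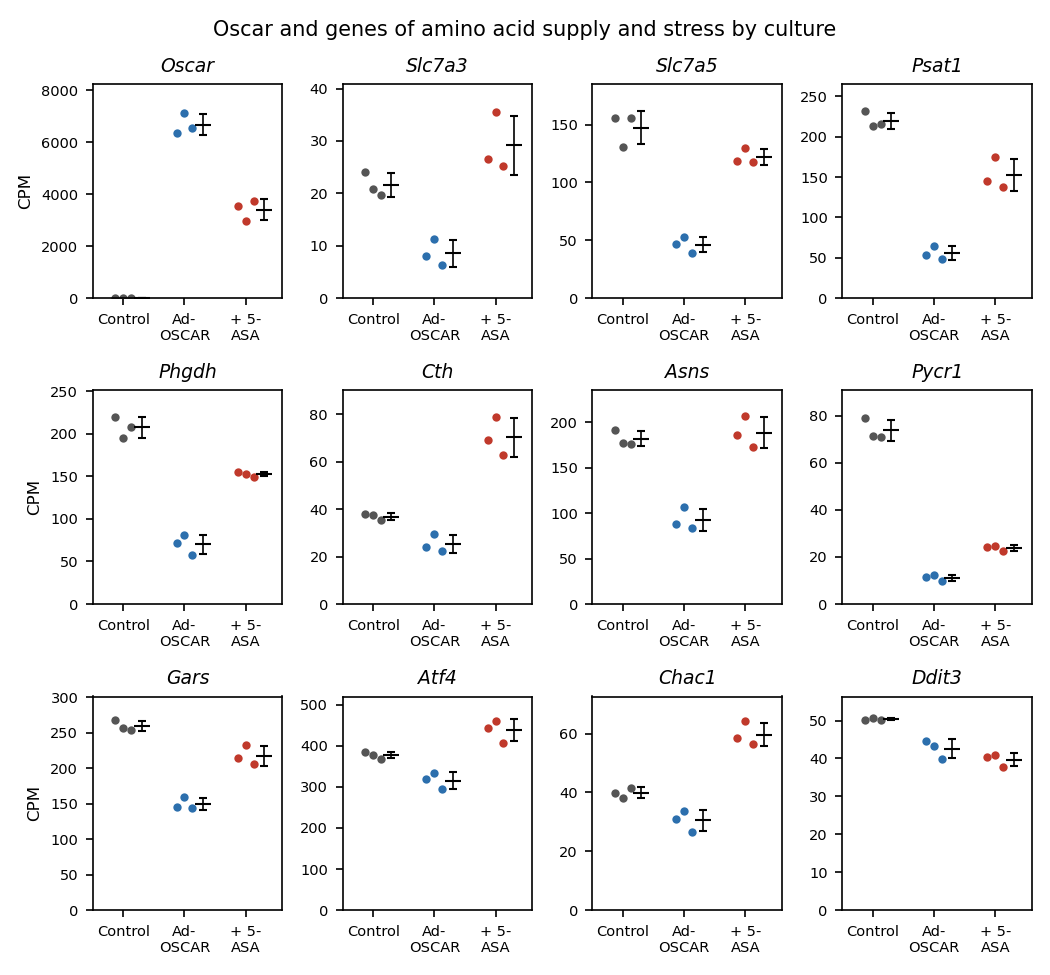
CPM by culture of Oscar and 11 genes of amino acid supply and stress in Control (grey), untreated Ad-OSCAR (blue) and 5-ASA-treated Ad-OSCAR (red) cultures, with 3 points per group and the mean ± SD beside them, each axis starting at 0. Oscar is lower with 5-ASA, the treated values of the other genes lie above the untreated ones, and those of Ddit3 overlap.

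The chaperones of the endoplasmic reticulum fold secreted proteins and rise in the unfolded protein response. Of 22 genes of these chaperones and this response, 10 were called lower, 2 higher and 10 were not called (14 lower and 1 higher under total count scaling). The median was -0.14. Hspa5, the main chaperone, was at 1132, 1085 and 1209 CPM and at 918, 903 and 891 CPM (log2 fold change -0.34, SE 0.0440, adjusted p = 2.97e-05). Sdf2l1, Creld2, Calr, Hsp90b1 and Manf were lower too, with log2 fold changes of -0.53, -0.38, -0.31, -0.31 and -0.29 (adjusted p between 4.64e-05 and 0.00059), whereas Herpud1, of the degradation of misfolded proteins, was higher (0.28, adjusted p = 0.000763). The 10 members not called included Xbp1 (0.0063) and Atf6 (0.043), the transcription factors of this response.

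Cholesterol genes had the largest share of members called higher among the 32 lists. When sterols are low in the membrane of the endoplasmic reticulum, the transcription factor SREBP2 (encoded by Srebf2) is released and raises genes of cholesterol synthesis and uptake; LXR, a receptor for oxidized sterols, raises the transporters that export cholesterol. Of the 25 genes of cholesterol synthesis and uptake, 22 were called higher and the other 3 did not pass the test (median 0.41); across the alternatives between 20 and 22 were higher. Cyp51, which demethylates lanosterol, was at 25.2, 27.4 and 26.5 CPM without drug and 40.6, 41.0 and 41.9 CPM with 5-ASA (log2 fold change 0.64, SE 0.0518, adjusted p = 1.34e-07). Msmo1, which acts on a later sterol intermediate, was at 38.4, 44.0 and 41.0 CPM and 61.4, 64.0 and 57.4 CPM (log2 fold change 0.57, SE 0.0553, adjusted p = 1.09e-06), and Idi1, which isomerizes an isoprenoid precursor, at 19.4, 22.6 and 19.97 CPM and 29.1, 30.0 and 30.2 CPM (log2 fold change 0.53, SE 0.0596, adjusted p = 5.47e-06). The treated values of these 3 genes exceeded all untreated ones but stayed below those of Control, which were 90.7 to 96.8, 72.7 to 73.4 and 64.4 to 67.3 CPM. Srebf2 was 1.29-fold higher with 5-ASA (adjusted p = 0.000147), while Srebf1, the relative that favours fatty acid genes, was at 109.6, 116 and 100.3 CPM and 114, 104 and 123 CPM (log2 fold change 0.066, adjusted p = 0.589), a difference whose sign turned under total count scaling.

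A sterol element of SREBP, written as TCACNCCAC on either strand, was present in 148 of the 10905 promoters (1.36%), of which 20 were called higher (13.5%) and 13 lower (8.78%), near the 10.6% and 8.11% of all 10905. Among the 17 cholesterol genes with an entry it was found in Hmgcs1, the enzyme that makes HMG-CoA, whose log2 fold change was 0.47 (adjusted p = 1.25e-05). The window is shown as the one promoter of the group with these letters, which begin 137 bases before the start, on the plus strand at chr13:119690174-119690262.
Hmgcs1: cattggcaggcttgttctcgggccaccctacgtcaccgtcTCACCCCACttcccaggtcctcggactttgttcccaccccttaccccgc

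Fatty acid genes followed with smaller changes, 12 of 19 called higher and the other 7 not called (median 0.25). The neighbouring desaturase genes Fads1, Fads2 and Fads3 were higher by 0.58, 0.46 and 0.45 on the log2 scale (adjusted p = 5.67e-07, 6.49e-06 and 5.93e-06), and Mid1ip1, a partner of acetyl-CoA carboxylase, by 0.57. Fasn, the fatty acid synthase, did not pass the test (0.14, adjusted p = 0.155). LXR targets were mixed, with 6 of 17 higher and 4 lower (3 and 4 under total count scaling) and a median of 0.061 that turned to -0.0093 under total count scaling. The 2 exporters of cholesterol stood out on the low side. Abcg1 was at 6.68, 5.37 and 7.06 CPM without drug and at 1.88, 2.12 and 2.25 CPM with it (log2 fold change -1.61, SE 0.152, adjusted p = 7.35e-07), and Abca1 at 204, 182 and 211 CPM and 138, 135 and 153 CPM (log2 fold change -0.49, SE 0.0592, adjusted p = 1.35e-05). Neither gene overlapped between groups, and both had been lower in Control, at 0.863 to 1.18 and 75.4 to 81.3 CPM. The receptors Nr1h2 (-0.08) and Nr1h3 (-0.021) were not called.

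The study was concerned with PPARγ, a lipid-activated nuclear receptor, and with eicosanoids, the prostaglandins and leukotrienes made from arachidonic acid. Pparg mRNA was low, with 60 to 73 reads per untreated culture and 70 to 93 per treated culture. It was at 2.48, 2.46 and 2.51 CPM and 3.58, 3.28 and 2.77 CPM, values that did not overlap but did not pass the test (log2 fold change 0.37, SE 0.152, adjusted p = 0.106) in the main analysis or in any alternative. Of 23 PPAR receptors, partners and targets, 2 were called higher and 3 lower (2 and 6 under total count scaling, median -0.05). The share called in either direction over all genes tested was 17.8%. The lipoprotein lipase inhibitor Angptl4 (0.37) and the mitochondrial carrier Ucp2 (0.65) were higher, and the lipid binding Fabp5 (-0.28), the lipid droplet protein Plin2 (-0.24) and the fatty acid importer Cpt1a (-0.18) were lower. The call of Cpt1a was lost without Ad-OSCAR culture 3 or treated culture 1 or 2 (adjusted p between 0.0644 and 0.0816). The partner receptor Rxra (-0.046), Ppard (-0.18), Rarg (0.066) and the coactivator Ep300 (-0.05) were not called. Rarg changed sign under total count scaling (-0.0052), and Ppard was called lower under it (-0.25) and without treated culture 3 (adjusted p = 0.0267).

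Ptgs2, the inducible cyclooxygenase, was lower by a small margin. In bulk RNA, here and below, fewer cells of a type and less RNA per cell cannot be told apart. Ptgs2 was at 1961, 1845 and 2127 CPM without drug and at 1581, 1635 and 1634 CPM with 5-ASA, against 46.1 to 59.7 CPM in Control (log2 fold change -0.29, SE 0.0652, adjusted p = 0.00417). Ptges, which makes prostaglandin E2 from its product, was also lower (log2 fold change -0.24, adjusted p = 0.00108), as was Hpgd, which degrades prostaglandins (log2 fold change -0.80, adjusted p = 0.00131). Alox5, the lipoxygenase that starts leukotriene synthesis, had 23 to 45 reads per untreated culture and 13 to 23 per treated culture (log2 fold change -1.12, SE 0.328, adjusted p = 0.0237); its values overlapped, and the call was lost on leaving out Ad-OSCAR culture 1 or 2 or treated culture 1 or 2 (adjusted p between 0.0785 and 0.126). In the whole list of 22 genes, 4 were called lower and 2, the carbonyl reductase Cbr2 (0.67) and the prostaglandin F receptor Ptgfr (0.25), higher (7 and 2 under total count scaling), with a median of -0.092. The call of Ptgfr was lost without Ad-OSCAR culture 1 (adjusted p = 0.0601). The thromboxane synthase gene Tbxas1 had 2 to 13 reads per culture and was not tested, and the nuclear receptor gene Nr1i2 had at most 2.

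Cytokines and chemokines moved both ways, 10 of 26 higher and 5 lower (9 and 7 under total count scaling, median 0.13). Ccl5, which recruits T cells and monocytes, was at 35.1, 43.9 and 32.4 CPM and then 67.4, 65.7 and 68.9 CPM with 5-ASA (log2 fold change 0.86, SE 0.0757, adjusted p = 3.64e-07). Cxcl12, a chemokine of stromal cells, was at 103, 108 and 93.7 CPM and 169.6, 169 and 162 CPM (log2 fold change 0.72, SE 0.0532, adjusted p = 5.96e-08). Neither overlapped between groups, but they stood differently toward Control, where Ccl5 was at 1.37 to 1.602 CPM and Cxcl12 at 337 to 362 CPM. Cxcl14 (0.80), Il34 (0.66), a ligand of the CSF1 receptor, and Ccl20 (0.59) were the other large rises (adjusted p between 3.15e-06 and 3.36e-05). On the low side, Il1rn, the antagonist of the interleukin-1 receptor, was at 10.5, 11.6 and 12.5 CPM and 8.04, 6.17 and 8.14 CPM (log2 fold change -0.63, SE 0.0947, adjusted p = 0.000123). Il6 had a log2 fold change of -0.21 (adjusted p = 0.0349), a call lost without Ad-OSCAR culture 1 or 3 or treated culture 1 or 3 (adjusted p between 0.1 and 0.149) and in DESeq2 (0.136). The calls of Il1a and Cxcl2, also lower, were each lost without Ad-OSCAR culture 1 or 2 or treated culture 1 or 3 (adjusted p between 0.0528 and 0.195). Over the alternatives between 2 and 7 members were called lower. NF-κB is a transcription factor of many of these genes. Of 24 genes listed for it (subunits, feedback genes and others), 3 were called higher and 1 lower (3 and 7 under total count scaling). This is a share near the 17.8% of all genes, and the median of -0.032 took both signs over the alternatives. The 3 called higher were the acute phase genes Saa3 (0.26) and Lcn2 (0.44) and the adhesion molecule Vcam1 (0.42). The subunit Rela (-0.14) was not called, but it was called lower without treated culture 3 (adjusted p = 0.0483) and under total count scaling (-0.21). The member called lower was the subunit Nfkb2 (-0.20), not called without Ad-OSCAR culture 2 or treated culture 2 (adjusted p = 0.0502 and 0.0872).

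Interferon-stimulated genes had the lowest median of the 32 lists, -0.33, with 6 of 20 called lower and 14 not called. These genes respond to interferons through transcription factors of the STAT and IRF families. Stat2 was at 30.9, 28.6 and 30.0 CPM without drug and 23.8, 22.8 and 24.7 CPM with it (log2 fold change -0.33, SE 0.0624, adjusted p = 0.00110), and Irf7 at 7.06, 5.58 and 7.202 CPM and 4.77, 3.68 and 4.78 CPM (log2 fold change -0.59, SE 0.138, adjusted p = 0.00563). Neither gene overlapped between groups. Irf9 (-0.27) lost its call without Ad-OSCAR culture 1 or 3 or treated culture 1 (adjusted p between 0.0582 and 0.0989), and Oas1a (-1.36) without Ad-OSCAR culture 1 or treated culture 1 or 2 (between 0.061 and 0.102). Usp18 (-0.97) lost it without Ad-OSCAR culture 1 or 3 or any 1 treated culture (between 0.0517 and 0.151). Oas1a and Usp18 had at most 54 reads in any of the 6 cultures.

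Matrix metalloproteinases, which cut collagens and other matrix proteins, held the largest falls among genes that averaged 5 CPM or more, and also rises. Mmp10 (chr9:7502352-7510240, plus strand), a stromelysin, was at 27.1, 23.7 and 29.6 CPM without drug and at 8.27, 8.46 and 9.49 CPM with 5-ASA (log2 fold change -1.62, SE 0.101, adjusted p = 1.34e-08). Mmp12 (chr9:7344381-7369499, plus strand), the macrophage elastase, was at 27.3, 28.4 and 32.3 CPM and 11.4, 12.5 and 11.9 CPM (log2 fold change -1.30, SE 0.0834, adjusted p = 1.35e-08) and overlaps an annotated gene on the other strand. In both, the highest treated value was under the lowest untreated one by more than 10 CPM, and no Control culture exceeded 1.13 CPM. The related stromelysin Mmp3 went up, from 11087, 11381 and 10761 CPM to 13013, 14183 and 12246 CPM (log2 fold change 0.25, SE 0.0477, adjusted p = 0.00125), as did the gelatinases Mmp9, from 8.62, 8.90 and 7.57 CPM to 14.0, 11.2 and 13.04 CPM (log2 fold change 0.61, adjusted p = 0.000404), and Mmp2 (log2 fold change 0.37, adjusted p = 9.89e-06). Mmp13, the main collagenase of cartilage, was at 8028, 8064 and 8232 CPM and 8791, 9347 and 8371 CPM and was not called (log2 fold change 0.12, SE 0.0434, adjusted p = 0.0566); 6 of the 16 alternatives called it higher, among them the fits without Control culture 2 (adjusted p = 0.0334) and without treated culture 3 (0.015). In all, 6 of 16 members were called higher and 4 lower (5 and 5 under total count scaling), with a median of 0.092. The call of Mmp15 (-0.64) was lost without Ad-OSCAR culture 1 or treated culture 2 or 3 (adjusted p between 0.0616 and 0.199).

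Of 16 ADAMTS proteases and TIMPs, 10 were called higher and the others did not pass the test (median 0.20); under total count scaling 6 were higher and 1 lower. The list holds genes of opposite roles. Timp3, which inhibits both protease families and is anchored in the matrix, was at 286, 302 and 274 CPM and 527, 552 and 516 CPM (log2 fold change 0.89, SE 0.0471, adjusted p = 4.89e-09), one of the smallest p-values of all genes, with 2825 to 3079 CPM in Control. Adamts5, the main aggrecan-cutting enzyme of mouse cartilage, was at 1151, 1121 and 1203 CPM and 1426, 1410.5 and 1440.0 CPM (log2 fold change 0.30, SE 0.0393, adjusted p = 3.14e-05), with 473 to 486 CPM in Control. Both rose without overlap. The procollagen peptidases Adamts2 and Adamts14 had log2 fold changes of 0.39 and 0.51, the second not called without Ad-OSCAR culture 3 or treated culture 3 (adjusted p = 0.0653 and 0.0656).

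Of 25 genes of cartilage matrix and SOX factors, 9 were called higher and 2 lower (7 and 4 under total count scaling), with a median of 0.12. Col2a1, the collagen of cartilage, was at 2262, 2267 and 1947 CPM without drug and 2703, 2373 and 2797 CPM with 5-ASA (log2 fold change 0.28, SE 0.0644, adjusted p = 0.00477), and Acan, the aggrecan gene, at 27.8, 29.4 and 26.6 CPM and 33.0, 31.8 and 36.1 CPM (log2 fold change 0.27, SE 0.0621, adjusted p = 0.00496). The treated values lay above the untreated ones, yet Control was at 31979 to 36792 CPM for Col2a1 and 2232 to 2490.1 CPM for Acan. Col11a1 showed the largest called log2 fold change of the list (0.57), followed by Scrg1 (0.48), Fmod (0.44), Col9a1 (0.42) and Comp (0.41), with adjusted p-values between 5.12e-07 and 0.00097. Sox9, the transcription factor of chondrocytes, was at 39.3, 41.5 and 33.6 CPM and 45.7, 42.4 and 46.8 CPM (log2 fold change 0.24, SE 0.0777, adjusted p = 0.0414), a call lost on leaving out Ad-OSCAR culture 1 or 3 or treated culture 1 or 3 (adjusted p between 0.0768 and 0.212). The lubricin gene Prg4 was lower (-0.18, adjusted p = 0.00649).

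Matrix genes of fibroblast type moved in larger number: 16 of 26 were called higher and the other 10 were not called (15 higher and 2 lower under total count scaling, median 0.21). Col1a2 was at 921, 981 and 870.2 CPM and 1409, 1319 and 1463 CPM (log2 fold change 0.60, SE 0.0484, adjusted p = 1.51e-07), Thbs1, a matricellular protein, at 8230.4, 8093 and 7693 CPM and 11692, 11514 and 12021 CPM (log2 fold change 0.55, SE 0.0352, adjusted p = 1.35e-08), and the small proteoglycan genes Bgn (0.39) and Lum (0.37) followed. Postn (0.84) and Col14a1 (1.33) had larger folds at under 111 and under 18 reads per culture, and Col14a1 was not called without Ad-OSCAR culture 1 (adjusted p = 0.0708).

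The actin cytoskeleton genes and targets of YAP, a coactivator that responds to cell tension, had 19 of 24 members called higher and the rest not called (median 0.35); between 15 and 19 were higher over the alternatives. Myl9, a myosin light chain, was at 8.31, 8.90 and 6.15 CPM without drug and 17.1, 14.7 and 17.4 CPM with it (log2 fold change 1.08, SE 0.104, adjusted p = 1.08e-06). Cnn2 (0.58), Tagln (0.52) and Vcl (0.46), which bind actin or anchor it, and Ccn1 (0.58), a YAP target, were higher with adjusted p-values between 2.33e-07 and 2.81e-05. Yap1 itself was at 0.086 and not called. The smooth muscle gene Cnn1, at 14 to 39 reads per culture, lost its call without Ad-OSCAR culture 2 or 3 or treated culture 1 or 3 (adjusted p between 0.0682 and 0.188).

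Signalling genes changed in both directions. Among 28 genes of TGF-β and BMP signalling, 8 were called higher and 6 lower, with a median of 0.018 that took both signs over the alternatives. Between 3 and 7 were called lower over these settings. The calls of Gdf5, Skil and Grem1, all lower, were lost without treated culture 1 (adjusted p between 0.0549 and 0.0854). Tgfb2 was at 80.3, 85.3 and 85.4 CPM and 123, 116 and 119 CPM (log2 fold change 0.51, SE 0.0493, adjusted p = 1.06e-06), Bmp4 (0.45), the BMP antagonist Nog (0.50) and Ccn2 (0.44) were higher, and Bmp2 was lower (log2 fold change -0.59, adjusted p = 0.00161). Of 28 WNT genes 7 were higher and 2 lower (median 0.14), among them the ligand Wnt5a (log2 fold change 0.50, adjusted p = 1.25e-05) and the receptors Fzd5 (0.48) and Fzd4 (0.47), with the nuclear effector Lef1 lower (log2 fold change -0.50, adjusted p = 0.00917). Immediate early genes were near 0 in the median, with 3 of 25 higher and 2 lower (3 and 5 under total count scaling), beside 17.8% called over all genes. Myc, a transcription factor of growth, was higher (log2 fold change 0.51, adjusted p = 1.22e-05), and Dusp6, a feedback phosphatase of the ERK pathway, lower (log2 fold change -0.35, adjusted p = 3.94e-05). Among 15 genes of OSCAR and ITAM signalling, the pathway through which receptors of this kind activate SYK and NFAT, 3 were called lower and 2 higher (4 and 1 under total count scaling). Oscar, the exchange factor Vav3 (log2 fold change -0.61, adjusted p = 8.67e-05) and the transcription factor gene Nfatc1 (log2 fold change -0.28, adjusted p = 0.00169) were lower and the kinase gene Fyn higher (log2 fold change 0.34, adjusted p = 0.000142).

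Of 30 cell cycle genes, 12 were called lower in the treated cultures, 2, the D-type cyclins Ccnd1 and Ccnd2, higher, and 16 were not called (median -0.27). Over the alternatives between 9 and 15 were called lower. Ccnb1, Kif11, Birc5, Tpx2 and Tyms each lost their call in some of the fits with 1 culture left out, and Ccnb1 and Tyms also in DESeq2. The replication helicase subunits Mcm6 and Mcm2 had log2 fold changes of -0.59 and -0.51 (adjusted p = 3.20e-06 and 3.15e-05). Mcm6 was at 18.5, 18.9 and 19.6 CPM without drug and at 12.5, 13.3 and 12.0 CPM with it. The mitotic genes Ccnb2 (-0.90) and Cdc20 (-0.62) were at 24 to 143 reads per culture (adjusted p = 0.00478 and 0.00290). Levels were already low without drug, Mcm6 being at 59.8 to 63.7 CPM in Control. The transcription factor p53 halts the cycle after damage. In the list of its targets and genes of cell death, 12 of 22 were called lower, with a median of -0.24. The list had 2 members called higher, among them the survival gene Bcl2 (0.39). Cdkn1a, the cell cycle inhibitor p21, was at 586, 568 and 587 CPM and 429, 408 and 445 CPM (log2 fold change -0.44, SE 0.0429, adjusted p = 1.09e-06), and Mdm2, the p53 ligase, at 219, 206 and 235 CPM and 160.4, 168 and 165 CPM (log2 fold change -0.42, SE 0.04999, adjusted p = 1.12e-05). Both genes stayed above Control in the treated cultures, at 199 to 205 and 101 to 106 CPM, and Trp53 itself was at 0.013, not called and of the other sign under total count scaling. Eda2r (-0.49), a death receptor, and Ccng1 (-0.37) were lower too.

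Antioxidant genes driven by NRF2 had 9 of 23 members called lower and 2 higher (12 and 1 under total count scaling, median -0.14). Gclc, the rate-limiting enzyme of glutathione synthesis, was at 48.3, 44.1 and 48.9 CPM and 28.1, 28.9 and 28.7 CPM (log2 fold change -0.72, SE 0.0537, adjusted p = 5.96e-08). Nqo1 (log2 fold change -0.47, adjusted p = 0.000290), Srxn1 (-0.32), Gclm (-0.30) and Gss (-0.30) were lower, and so was Nfe2l2, the gene of NRF2 (log2 fold change -0.18, adjusted p = 0.00623). Heat shock genes had 3 of 16 called lower and 1 higher (6 and 1 under total count scaling), beside 17.8% called over all genes. Hspa1b was lower (log2 fold change -0.50, adjusted p = 0.00165), Cryab higher (log2 fold change 0.32, adjusted p = 0.00579) and the median was -0.0019. The calls of Hspa1a and Dnajb1, also lower, were each lost without Ad-OSCAR culture 1 or 2 or treated culture 2 (adjusted p between 0.0504 and 0.187). Glycolysis and hypoxia genes had 10 of 24 called higher and 1, the carbonic anhydrase Car9, lower (log2 fold change -0.53, adjusted p = 2.28e-06), and 7 and 5 under total count scaling. Pdk1 (0.39), Pfkfb3 (0.29) and Vegfa (0.29) were higher.

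Housekeeping lists were compared in the same way, beside a share of 17.8% called over all genes. Of 26 nuclear genes for the respiratory chain and ATP synthase, 2 were called, both lower (Ndufa4, -0.18, and Uqcrfs1, -0.17), with Uqcrfs1 not called without Ad-OSCAR culture 1 or 2 or treated culture 1 or 2 (adjusted p between 0.068 and 0.121), and the median was -0.022. Lysosome and autophagy genes had 5 of 25 called lower, none of them beyond -0.28 (Mcoln1). Ribosomal protein genes had 5 of 26 called higher (2 higher and 1 lower under total count scaling), up to 0.30 (Rpl3), and mRNAs of the mitochondrial genome 4 of 13, up to 0.28 (mt-Nd6). Over the alternatives the counts called higher in these last lists ranged from 2 to 8 each.

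**Figure D3:**
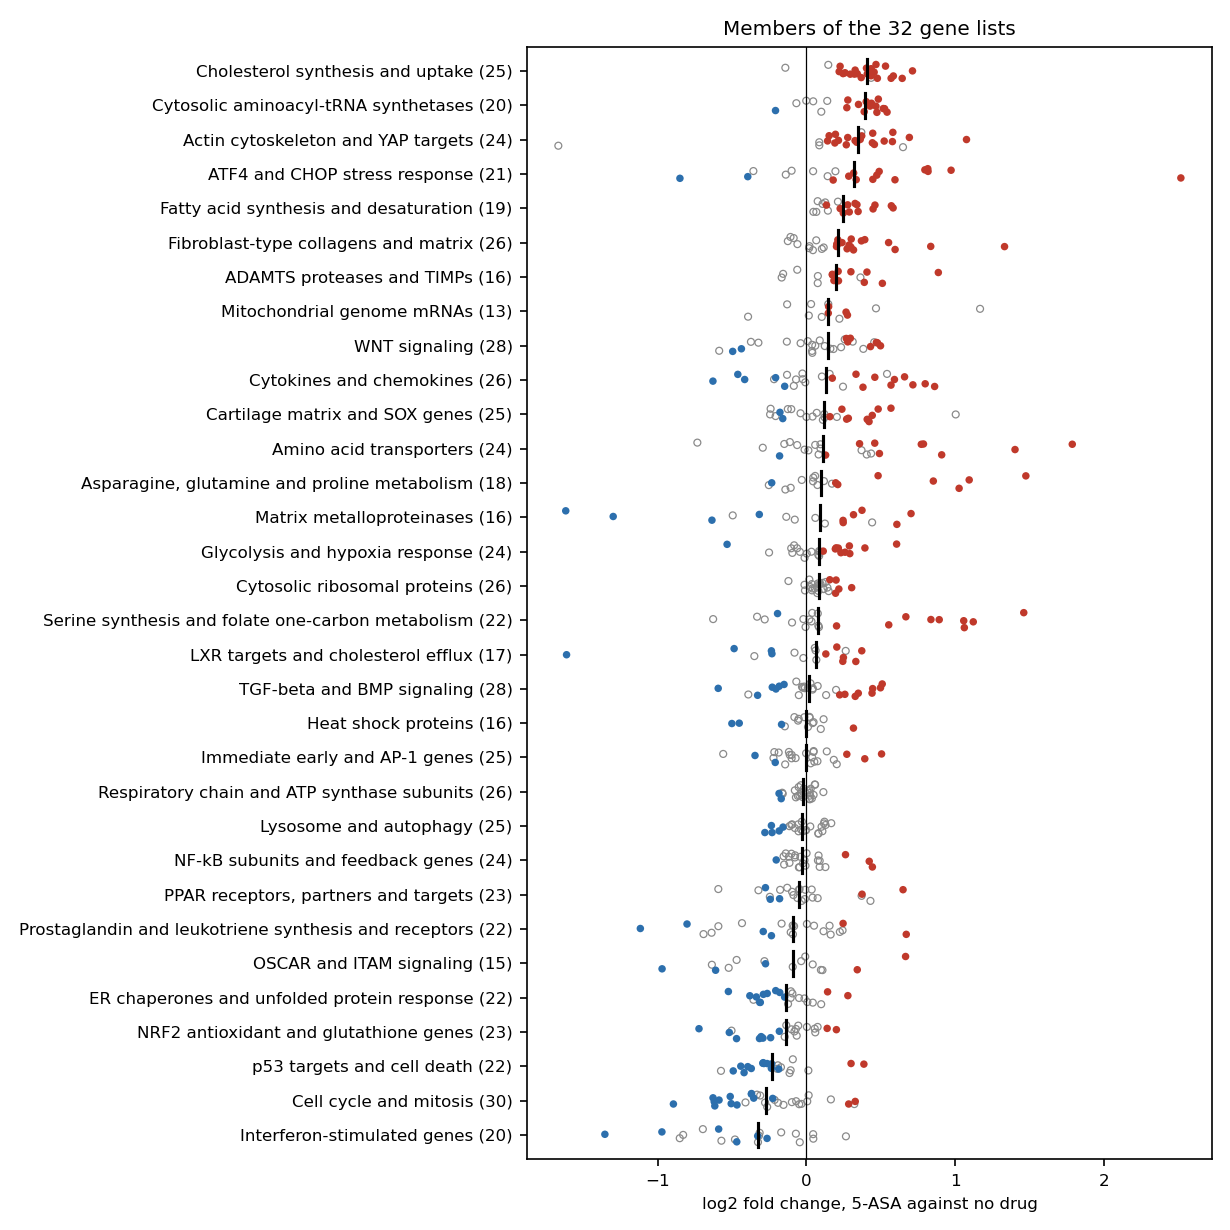
Log2 fold change, 5-ASA against no drug, of each tested member of the 32 gene lists (number tested in brackets), with called members in red (higher) or blue (lower), others as open circles and the median as a black bar, ordered by median. Cholesterol genes, with 22 of 25 members called higher, are at the top, and interferon-stimulated genes are at the bottom with a median of -0.33.

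**Figure D4:**
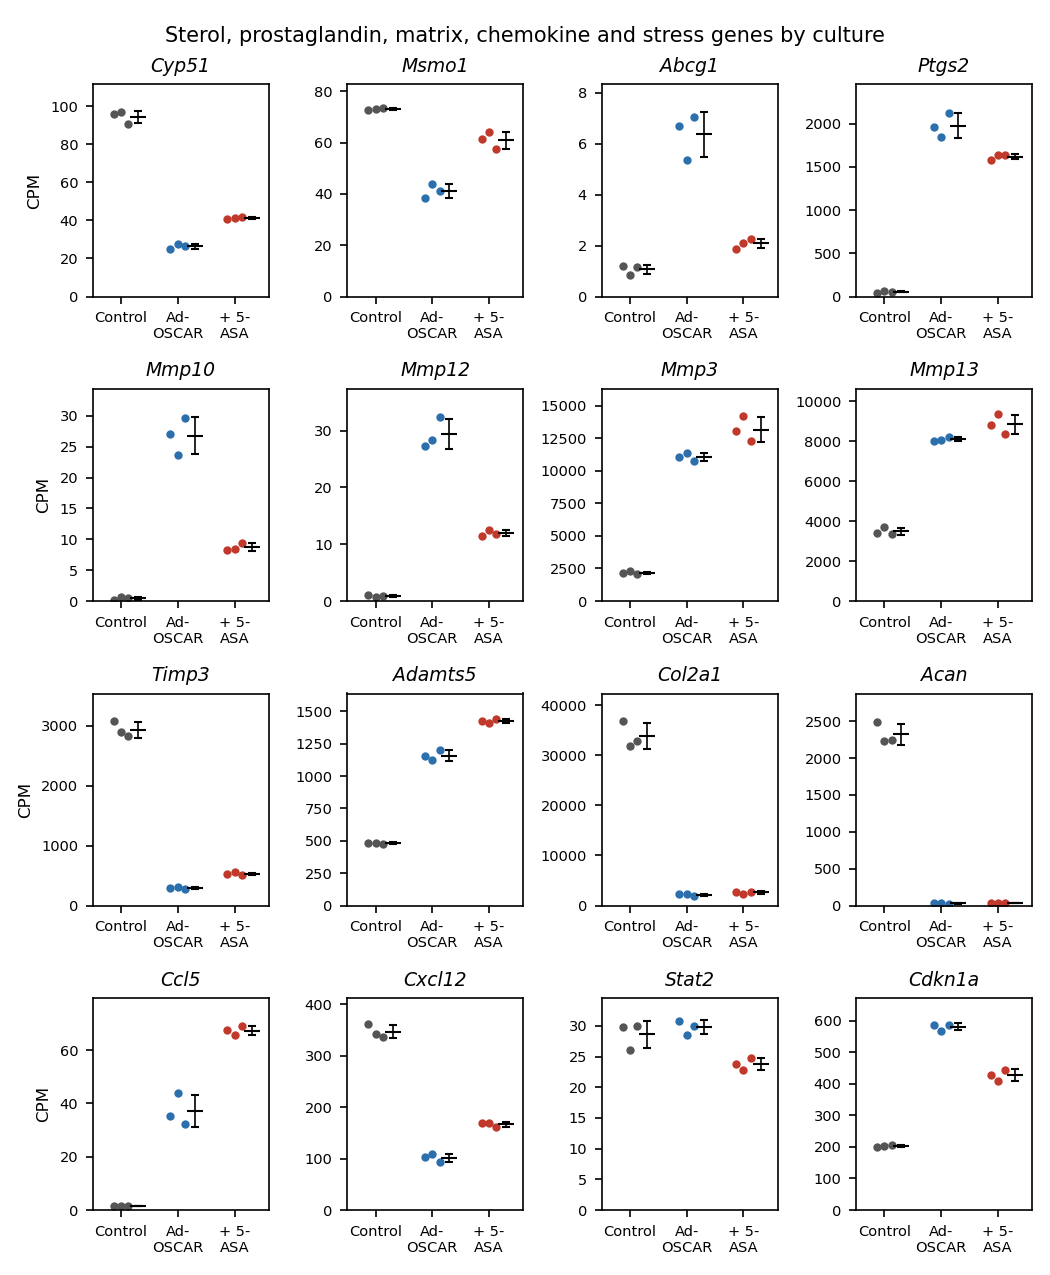
CPM by culture of 16 genes of sterols, prostaglandins, matrix, chemokines and stress in Control (grey), untreated Ad-OSCAR (blue) and 5-ASA-treated Ad-OSCAR (red) cultures, with the mean ± SD beside the 3 points of each group and each axis starting at 0. Abcg1, Mmp10, Mmp12, Ptgs2, Stat2 and Cdkn1a are lower with 5-ASA, while Timp3, Adamts5, Mmp3 and Ccl5 are higher, and Col2a1 and Acan stay far below Control.

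Some genes differed with 5-ASA although Ad-OSCAR and Control cultures differed little in them. This was taken as a log2 fold change of Ad-OSCAR against Control between -0.25 and 0.25. It does not mean that they were equal: the Control and Ad-OSCAR values of Lbp, Hmox1 and Tnfrsf23 given below did not overlap. Both comparisons share the untreated Ad-OSCAR cultures, and their values are given side by side. Lbp, which hands bacterial lipopolysaccharide to its receptor, was at 349.7, 324 and 317 CPM in Control, 275, 302 and 261 CPM in Ad-OSCAR and 489.7, 471 and 476 CPM with 5-ASA (log2 fold change 0.78, SE 0.0533, adjusted p = 2.40e-08). Mdk, a heparin-binding growth factor, was at 9.11, 8.79 and 8.30 CPM in Control, at 7.70, 9.02 and 6.66 CPM in Ad-OSCAR and at 14.0, 13.8 and 12.6 CPM with 5-ASA (log2 fold change 0.79, SE 0.0983, adjusted p = 1.65e-05). Dchs1, a giant cadherin, was at 15.5, 14.3 and 16.4 CPM in Control, at 16.7, 17.7 and 15.9 CPM in Ad-OSCAR and at 29.5, 25.3 and 30.7 CPM with 5-ASA (log2 fold change 0.77, SE 0.0777, adjusted p = 1.84e-06). In these 3 genes the treated cultures were above all 6 others. Bend5 (0.76) and the deubiquitinase gene Otub2 (0.73) completed the 5 largest rises. Bend5 ranged from 9.53 to 11.03 CPM without drug and from 16.5 to 18.1 CPM with it, and Otub2 from 10.96 to 13.3 CPM and from 19.3 to 21.5 CPM.

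Among the falls, Gtse1, a microtubule protein of the G2 and S phases, was at 19.0, 19.6 and 22.2 CPM in Control, 21.3, 19.6 and 22.7 CPM in Ad-OSCAR and 10.1, 9.05 and 12.5 CPM with 5-ASA (log2 fold change -1.01, SE 0.0989, adjusted p = 1.15e-06). Hmox1, the heme oxygenase induced by NRF2, was at 119.8, 123 and 132 CPM in Control, at 136, 141 and 143 CPM in Ad-OSCAR and at 95.1, 93.4 and 105 CPM with 5-ASA (log2 fold change -0.52, SE 0.0534, adjusted p = 2.18e-06). Tnfrsf23, a decoy receptor of TRAIL, was at 47.2, 51.2 and 51.2 CPM in Control, at 55.4, 59.9 and 62.5 CPM in Ad-OSCAR and at 39.1, 38.8 and 41.5 CPM with 5-ASA (log2 fold change -0.57, SE 0.0550, adjusted p = 9.49e-07). The treated values of these 3 were below all Control and untreated values. Cables1 (-0.68) followed the same order, and Scand1 (-0.61) had an untreated culture, at 12.9 CPM, barely above the highest treated one, at 12.9 CPM when rounded. Oscar mRNA also differed between the compared cultures, so an effect of 5-ASA free of OSCAR was not tested in these genes.

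**Figure D5:**
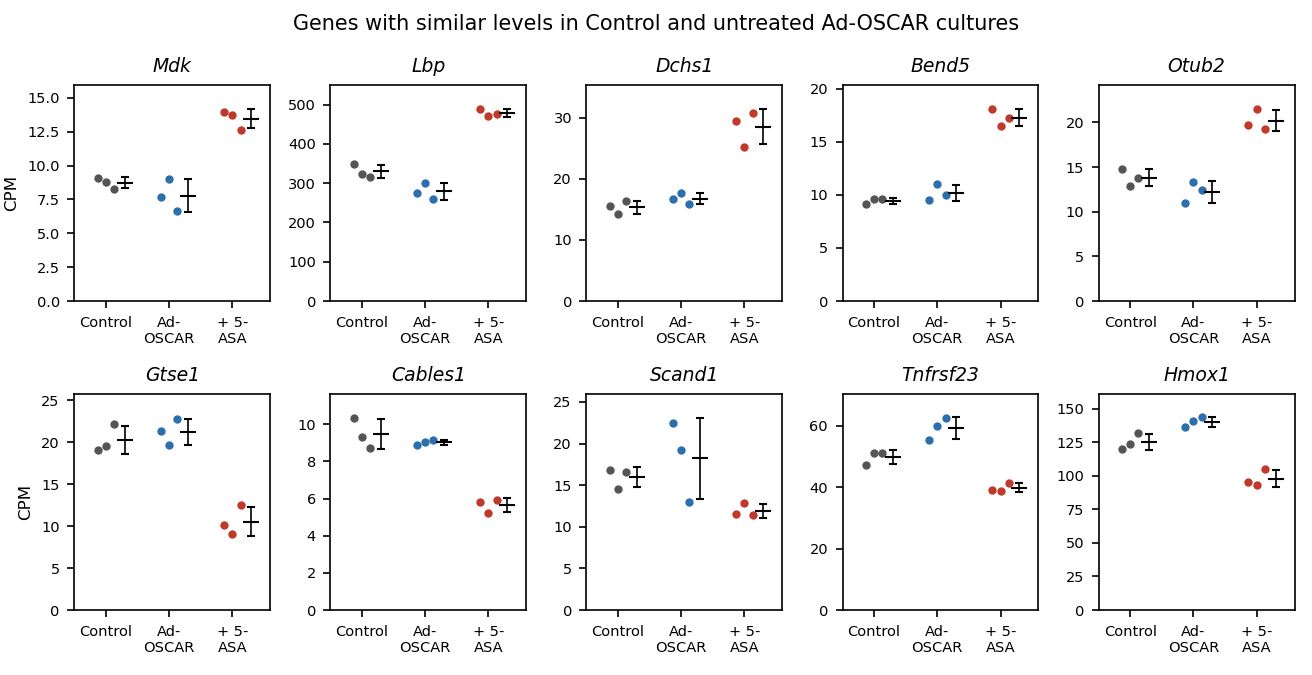
CPM by culture of the 5 largest rises (top row) and 5 largest falls (bottom row) with 5-ASA among genes whose log2 fold change of Ad-OSCAR against Control was between -0.25 and 0.25, with 3 points per group, the mean ± SD beside them and each axis starting at 0. The treated points (red) lie apart from the untreated ones (blue), most narrowly for Scand1.

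Other genes with the largest folds or smallest p-values follow. Mest, an imprinted gene of mesoderm, was at 161, 199 and 165 CPM without drug and 382, 407 and 368 CPM with 5-ASA (log2 fold change 1.14, SE 0.0629, adjusted p = 4.89e-09), far under the 4398 to 4488 CPM of Control. Serping1, the inhibitor of the first complement component, was at 32.8, 38.3 and 36.5 CPM and 78.7, 75.2 and 70.0 CPM (log2 fold change 1.06, SE 0.0594, adjusted p = 4.89e-09), and C4b, complement component 4, at 164, 171 and 152 CPM and 304, 294 and 309.6 CPM (log2 fold change 0.90, SE 0.0501, adjusted p = 4.89e-09). The treated levels of these 2 complement genes came near those of Control, at 76.7 to 81.2 and 318 to 345 CPM. Ibsp, the bone sialoprotein gene, was higher as well (4.65, 6.68 and 4.07 CPM and 13.2, 12.0 and 11.7 CPM, log2 fold change 1.27, adjusted p = 2.44e-06), as were Tspyl4 (1.22), Pcdhga8 (1.15), a protocadherin gene that shares exons with its neighbours, and the predicted genes Gm9347 (1.28) and Gm7901 (1.24). On the low side, Lilrb4a, an inhibitory receptor of myeloid cells that overlaps an annotated gene on the same strand, was at 6.28, 8.32 and 8.66 CPM and 2.81, 3.43 and 3.83 CPM (log2 fold change -1.20, SE 0.158, adjusted p = 3.14e-05). Arl14epl (-1.18), the phosphodiesterase gene Pde11a (-1.01), the peptide hormone gene Cck (-1.01), Gm20400 (-0.95), Rragd (-0.92), a GTPase of amino acid sensing by mTORC1, and Resf1 (-0.70) made up the rest (adjusted p between 2.94e-08 and 0.000179).

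Markers of other cell types moved with the treatment in part. The 8 chondrocyte markers summed to 42517 to 48294 CPM in Control, 3081 to 3476 in untreated and 3960 to 4425 CPM in treated cultures, and 6 of the 8 were called higher. The connective tissue fibroblast markers summed to 13189 to 14007 CPM and 15856 to 16869 CPM, with 4 of 7 tested called higher. Most of these sums came from the matrix genes Col3a1, Dcn and Col1a1, at treated means of 8637, 4056 and 3561 CPM. Pdgfra (0.060), and Dpt (-0.41) and Clec3b (1.32) at no more than 9 reads per compared culture, were not called. For macrophage markers the sums were 14.2 to 14.9 and 12.4 to 12.96 CPM, with Cd68, 1 of the 4 tested, lower. Csf1r (0.48), Mrc1 (-0.17) and Lyz2 (-0.053) were tested and not called. The other 4 (Adgre1, Itgam, Ptprc and C1qa) were at no more than 3 reads in every culture. Osteoblast markers went from 45.7 to 47.3 CPM to 57.9 to 60.9 CPM, by Ibsp and Alpl, while the osteocalcin gene Bglap had at most 7 reads in any culture. Endothelial markers went from 8.08 to 8.72 CPM to 5.98 to 6.31 CPM, with Vwf and Tek called lower and Tie1 and Emcn at no more than 1 read. Egfl7, the endothelial marker with the highest level, was not called, at means of 3.33 CPM without drug and 3.60 CPM with it (log2 fold change 0.11). Of osteoclast markers, Oscar was lower and Mmp9 higher, and Dcstamp had 0 reads in the 9 cultures. Adipocyte markers, nearly all Fabp4, summed to 28.2 to 31.5 CPM and 26.9 to 31.3 CPM. Skeletal muscle markers summed to 1.16 to 2.17 CPM and 0.711 to 1.077 CPM, and erythroid and lymphocyte markers to at most 0.145 and 0.611 CPM in any culture. The part of any other cell type in the matrix and chemokine genes was not tested.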

How the data were processed

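RNA of 9 cultures was sequenced (TruSeq stranded mRNA, pairs of 100 bases). The authors checked and trimmed the reads, aligned them to GRCm38 with STAR 2.7.1a and deposited RSEM 1.3.1 expected counts per gene, whose strand setting is not given in the sources used here. Of the 224 named genes 102 overlap another annotated gene and may share its reads. Expected counts were rounded, and genes were named from GENCODE M21 (55230 of 55471 matched). Depth was 19733464 to 28192769 counts per culture. A single edgeR 4.0.16 quasi-likelihood fit of the 9 cultures by group (TMM, genes kept by filterByExpr, 6 residual degrees of freedom, biological coefficient of variation 5.11%) gave log2 fold changes, standard errors, and p-values adjusted over 15362 genes. Cultures of a group were checked for repeat deposits of a library, and each pair differed by more than counting noise (chi-square over degrees of freedom 4.03 to 7.52), which does not show how the cultures were prepared. The script was tested on simulated counts.

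Members and the 32 gene lists were chosen with earlier results of these data known. Named genes were Oscar, the 10 largest folds and 5 smallest p-values in each direction (mean of at least 5 CPM, no overlap), the 5 largest in each direction with little difference between Ad-OSCAR and Control, up to 6 called members of each list, the factor a list is named for, and genes the study names. Shmt1, Mthfd1, Aars, Iars, Xbp1, Atf6, Herpud1, Hmgcs1, Fasn, Il6, Prg4, Ccnd1, Ccnd2 and the cell type markers were named after their values were seen. Another 16 settings were tried (scaling, filters, samples, replicate block, DESeq2 1.42.0, 9 left-out cultures). Results of a few genes in these lists are not reported here.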

Additional observations from a re-analysis of the deposited data

How the results depend on the processing

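Oscar was lower with 5-ASA under the 16 alternatives, at log2 fold changes from -1.04 to -0.88. With total counts in place of TMM, 1058 genes were called higher and 2523 lower, 264 of these over 1.5-fold. DESeq2 called 111 genes lower by over 1.5-fold. Leaving out 1 culture gave 721 to 1128 genes called lower and 1147 to 1624 called higher. The replicate numbers shared no deviations (correlations -0.0262, -0.0723 and 0.0108), so cultures with the same number were not taken as pairs, and a replicate block gave 1482 higher and 1017 lower. Of 208 named genes called, 178 were called in every alternative that tested them, and no called gene reversed. Genes that were not called changed sign: Srebf1 (-0.0043), Trp53 (-0.058) and Rarg (-0.0052) under total count scaling, and Nr1h3 (-0.12 to 0.030), Trp53 (-0.036 to 0.043) and Rxra (-0.11 to 0.025) over the fits with 1 culture left out. The medians of the LXR, NF-κB, heat shock, immediate early and TGF-β lists took both signs. DESeq2 gave no adjusted p for 4 named genes. Alox5 had 13 to 45 reads per compared culture and Pparg 60 to 93, so counting error is a larger part of their values than at higher depth. The cause of the changes was not tested.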
